A study of Mus musculus with 4 samples.

Results

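Small nuclear RNAs (snRNAs) were examined in cultured muscle stem cells, the satellite cells of muscle (MuSC), after deletion of Prmt5. The members are the genes of biotype snRNA in GENCODE release vM21 whose deposited mean over all libraries was at least 5 normalized counts. They number 122, out of 331 snRNA genes in the deposited table of 20065 genes and 1385 snRNA genes in the annotation. Just inside the threshold lay Gm22822 with a mean of 5.06, Gm22061 with 5.1 and Gm22739 with 5.27, and just outside it lay Gm25147 with 4.94, Gm24873 with 4.97 and Gm23116 with a value just under 5. Total RNA depleted of ribosomal RNA was sequenced from 2 control and 2 Prmt5sKO samples of cultured MuSC from limb and trunk muscles of adult C57BL/6 mice. All carried the Pax7CreERT2 allele and were exposed to TAM (given to the cultured cells as 4-OH-TAM, per the study's methods), so that control cells too had an active, Pax7-driven Cre recombinase. Control cells were Prmt5 +/loxP and thus had 1 allele that Cre could delete, while Prmt5sKO cells were Prmt5 loxP/loxP. The question put to the data was how the levels of snRNAs differed between cells with and without Prmt5.

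snRNAs are short, stable, non-polyadenylated RNAs of the nucleus. U1, U2, U4, U5 and U6 form the major spliceosome, in which U1 pairs with the 5′ splice site, U2 with the branch site, and U6, brought in paired with U4, with the 5′ splice site as splicing begins. U11, U12, U4atac and U6atac take these places in the minor spliceosome, which removes a small class of introns, and U7 guides the 3′ end cutting of replication-dependent histone mRNAs. All but U6 and U6atac are made by RNA polymerase II and receive a ring of Sm proteins, in U7 of Sm and Lsm proteins, in the cytoplasm. Prmt5, with its partners Wdr77 and Clns1a, methylates arginines of several Sm proteins, a step that favours their hand-over to the SMN complex, which loads the ring onto the RNA. The mouse genome holds several expressed copies of most of these genes and a far larger number of diverged, pseudogene-like copies.

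The results turn on copies that differ by few bases, since these differences decide to which copy a read can be assigned. The leading U1 members are shown against Rnu1a1 (chr11:87422867-87423030, plus strand, GRCm38), in whose sequence the capitals mark the stretch that pairs with the 5′ splice site. In Gm22513 (chr12:54696782-54696945, plus strand) and Gm24305 (chr12:54734555-54734718, minus strand) the capital marks the difference from Rnu1a1, T60C and A26G, with positions counted from 1 at the 5′ end. All sequences are those of the GENCODE vM21 transcripts in DNA letters, written 5′ to 3′.

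Rnu1a1: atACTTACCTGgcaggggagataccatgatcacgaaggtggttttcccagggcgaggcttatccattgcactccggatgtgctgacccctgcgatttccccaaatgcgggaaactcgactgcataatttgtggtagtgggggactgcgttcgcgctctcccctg

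Gm22513: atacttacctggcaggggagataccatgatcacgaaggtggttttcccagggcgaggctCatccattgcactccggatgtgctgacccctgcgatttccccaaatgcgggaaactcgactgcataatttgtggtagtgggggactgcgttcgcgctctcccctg

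Gm24305: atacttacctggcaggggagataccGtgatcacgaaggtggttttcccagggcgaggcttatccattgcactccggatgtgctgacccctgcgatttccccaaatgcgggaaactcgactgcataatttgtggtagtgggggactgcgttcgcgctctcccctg

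The leading U2 members are shown against Rnu2-10 (chr11:101658238-101658428, plus strand), with the stretch that pairs with the branch site and the Sm site in capitals. In Gm25360 (chr1:72226240-72226430, plus strand), the member with the highest mean, and in Gm25939 (chr1:72255008-72255198, plus strand), the member with the lowest p-value, the capitals mark the differences from Rnu2-10. These are C78T, A95G, G109C and C154T in Gm25360, and T69C, C78T and G109C in Gm25939.

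Rnu2-10: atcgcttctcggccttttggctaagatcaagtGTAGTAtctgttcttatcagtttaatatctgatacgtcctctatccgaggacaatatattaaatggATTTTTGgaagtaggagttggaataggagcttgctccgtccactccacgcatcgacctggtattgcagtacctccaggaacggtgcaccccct

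Gm25360: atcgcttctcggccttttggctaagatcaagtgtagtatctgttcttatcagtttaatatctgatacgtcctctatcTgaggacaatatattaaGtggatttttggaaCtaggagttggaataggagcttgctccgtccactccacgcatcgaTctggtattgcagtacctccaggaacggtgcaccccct

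Gm25939: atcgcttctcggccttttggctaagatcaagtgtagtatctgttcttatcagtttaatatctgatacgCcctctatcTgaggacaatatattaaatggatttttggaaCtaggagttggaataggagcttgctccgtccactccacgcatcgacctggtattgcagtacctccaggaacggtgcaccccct

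Rnu12 (chr15:83149644-83149794, plus strand) is shown as the named gene whose groups did not overlap. Gm24265 (chr5:115489459-115489599, plus strand), Gm22710 (chr1:118459141-118459265, minus strand) and Gm25541 (chr2:27539805-27539930, minus strand) are shown because their symbols do not name an RNA. They lead the groups called here U4, U4atac and U6atac, from their textbook sequences. The longest complementary run between Gm24265 and Rnu6 was 8 bases. That between Gm22710 and Gm25541 was also 8 bases, against 7 bases in each crosswise combination. Runs between unrelated RNAs were not examined, so these lengths do not bear on the names. The capitals mark the Sm site ATTTTTG, which Gm25541 does not hold.

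Rnu12: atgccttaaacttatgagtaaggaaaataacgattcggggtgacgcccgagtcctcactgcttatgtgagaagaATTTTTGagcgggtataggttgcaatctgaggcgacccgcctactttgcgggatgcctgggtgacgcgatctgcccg

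Gm24265: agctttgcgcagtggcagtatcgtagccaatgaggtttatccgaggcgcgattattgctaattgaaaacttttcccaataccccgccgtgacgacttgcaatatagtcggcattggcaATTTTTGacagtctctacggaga

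Gm22710: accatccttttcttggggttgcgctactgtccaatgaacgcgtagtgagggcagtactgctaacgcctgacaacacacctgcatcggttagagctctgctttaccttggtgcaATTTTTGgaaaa

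Gm25541: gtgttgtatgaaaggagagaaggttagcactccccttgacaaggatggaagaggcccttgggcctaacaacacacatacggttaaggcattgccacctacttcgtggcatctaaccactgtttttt

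Levels are read counts per gene scaled by TMM (trimmed mean of M-values), which sets the libraries to a common depth. Groups were compared with limma-voom, a linear model of log2 counts weighted by their precision, with Benjamini-Hochberg adjustment over all genes tested. Libraries are named by their depth, since the deposited columns carry no replicate numbers. Where 4 values are given, those for control and then those for Prmt5sKO start with the deeper library of the group. Total counts were 14436914 and 13240754 in control, 20047430 and 16190414 in Prmt5sKO. Prmt5 itself had 2273 and 2906 normalized counts in control and 244 and 202 in Prmt5sKO, lower in both Prmt5sKO libraries, as the labels say. All 6 markers of satellite cells and myoblasts were detected in each library, among them Pax7 at 2570 to 3664. The libraries of a group were not alike. The summed level of the 6 markers of differentiating myocytes was 9301 and 6276 in control, then 15650 for the deeper Prmt5sKO library and 166988 for the shallower. Xist, the RNA of the inactive X chromosome, had 8668 counts in the deeper control and 5655 in the shallower Prmt5sKO library, against 23.3 and 8.15 in the other libraries. Summed markers ranged from 217 to 455 for fibroblasts, with 5 of 5 markers tested, from 56.3 to 163 for endothelium, with 3 of 4, and from 58.5 to 112 for leukocytes, with 2 of 6. Lum was at 0 in all libraries but the shallower control, Cdh5 in the shallower Prmt5sKO and Itgam in the shallower control library. The part of these differences in the results on snRNAs was not tested.

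The 122 members took 0.748% of all counts in the deeper control, 0.241% in the shallower control, 0.446% in the deeper Prmt5sKO and 0.700% in the shallower Prmt5sKO library. The highest shares were thus in 1 library of each group. Reads were few outside the leading copies. The 10 highest members held 84.4% of the members' counts, 28 members had a deposited mean of at least 100, and 83 had a mean under 25. Per length, Gm25360 led with 11113 normalized counts per 100 bases, followed by Gm22513 with 5153, Gm26316 with 4284, Gm25099 with 4111, Gm24305 with 4108 and Gm22973 with 4004. These last 4 cannot be ranked against each other, because within each of them the libraries differed by more than the members did.

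**Figure D1:**
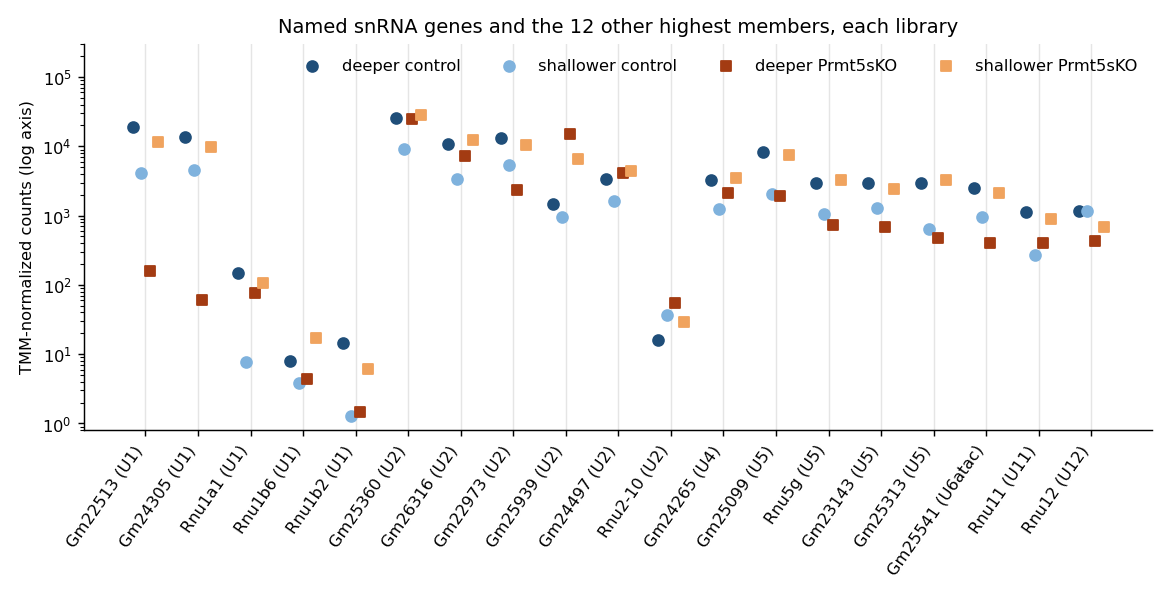
TMM-normalized counts (log axis) of the members with an Rnu symbol and the 12 other members with the highest mean, grouped by family. Circles stand for control and squares for Prmt5sKO libraries, and dark symbols for the deeper library of each group. Gm22513 and Gm24305 lie at 159 and 60.0 in the deeper Prmt5sKO library and at 4088 or more in the other libraries.

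No member passed the test between groups. Called genes, with an adjusted p of at most 0.05 and at least a 2-fold change, were 0 of the 16151 genes tested (0%). The smallest limma-voom adjusted p was 0.193 over all genes and 0.198 among the members. Prmt5, the deleted gene, was itself not called (log2 fold change -3.52, limma-voom adjusted p = 0.193), so a member that was not called may still differ. The paper, using DESeq2 with the same limits on fold change and adjusted p, did report differing genes. At an unadjusted p under 0.05, 3 members were higher and 3 were lower in Prmt5sKO, which is 2.46% of the members in each direction, beside 6.03% of all genes tested that were higher and 6.97% that were lower. In 13 members (10.7%) both Prmt5sKO libraries lay above both control libraries, beside 25.2% of all genes tested, and in 17 members (13.9%) both lay below, beside 23.7%. The groups overlapped in the remaining 92 members. Both shares of separated members thus lay below the background. An exact two-sided permutation test of 2 against 2 libraries cannot give a p below 0.333. Nothing in the labels says whether the replicates were separate cultures or animals, so the p-values measure the spread between these libraries only.

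The median log2 fold change of the members, Prmt5sKO over control, was -0.31, against 0.02 over all genes tested, with a range from -4.86 to 3.06. It was below 0 in 74 members and above 0 in 48. Taken singly, the Prmt5sKO libraries lay on opposite sides of the controls. The median log2 difference of the members from the mean of the control libraries was -0.62 for the deeper Prmt5sKO library and 0.38 for the shallower, against 0.04 and 0.03 over all genes. The libraries within a group differed more than that. At the median member the shallower control differed from the deeper control by -1.96 on the log2 scale, and the shallower from the deeper Prmt5sKO library by 0.95, against -0.02 over all genes in each group. Of the members, 71 (58.2%) were highest in the deeper control library, against 18.8% of all genes, and 59 (48.4%) were lowest in the shallower control library, against 30.8%. A median over 222 small nucleolar RNAs differed in the same directions, by -1.0 between the control and by 1.19 between the Prmt5sKO libraries. Each value is the level of a bulk sample. It could reflect fewer cells of a type or less RNA per cell, which cannot be told apart. Whether RNA extraction or the making of the libraries contributed was not tested. Without the deeper control library the members' median was 0.61, without the shallower control -1.19, without the deeper Prmt5sKO 0.31 and without the shallower Prmt5sKO library -0.79.

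**Figure D2:**
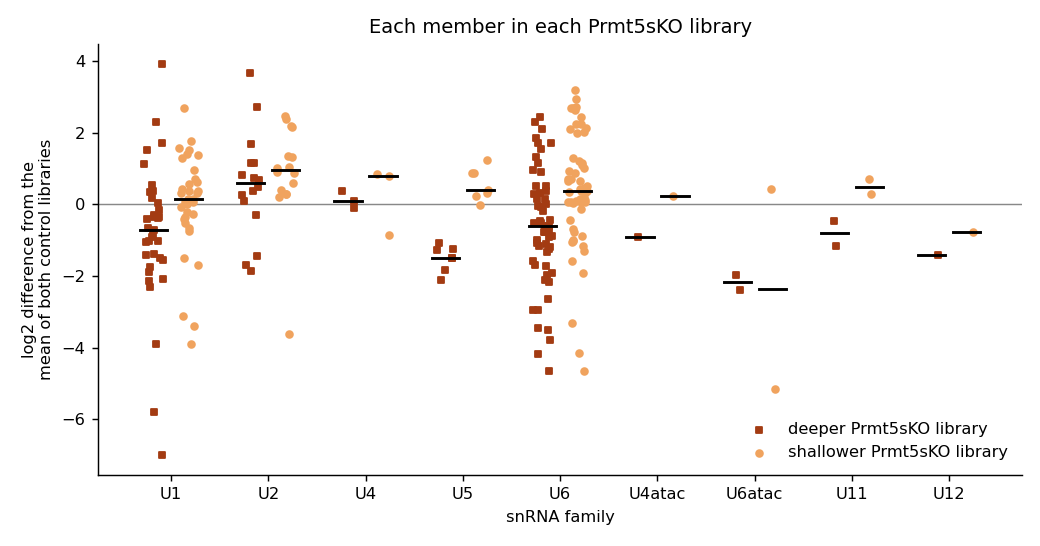
Log2 difference of each member from the mean of both control libraries, in the deeper (squares) and the shallower (circles) Prmt5sKO library, by family, with black lines at the family medians. All 7 U5 members lie below 0 in the deeper Prmt5sKO library, whereas the U2 medians are 0.59 and 0.97.

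U1 recognizes 5′ splice sites, and its 35 members included the largest contrasts between libraries. Their assigned reads summed to 35367 normalized counts in the deeper control and 9402 in the shallower control. The sum was 2466 in the deeper Prmt5sKO and 22878 in the shallower Prmt5sKO library. The groups overlapped, and the highest library was 14.3 times the lowest. Reads that fit several U1 copies stayed unassigned, so this sum holds only reads given 1 position and is no measure of the U1 level. The other family sums too hold only assigned reads. Gm22513, the highest U1 member, had 19075 and 4088 normalized counts in control and 159 and 11415 in Prmt5sKO. Gm24305 had 13503 and 4479 in control and 60.0 and 9635 in Prmt5sKO. Both genes were thus low in a single Prmt5sKO library, while the other lay within the control range. Their log2 fold changes were -2.73 (SE 1.91, limma-voom adjusted p = 0.555) and -3.49 (SE 2.13, limma-voom adjusted p = 0.508). Without the deeper Prmt5sKO library they became 0.37 and 0.31. Without the shallower Prmt5sKO library Gm24305 passed the test at -7.01 (limma-voom adjusted p = 0.0476), where the remaining Prmt5sKO library is assumed to vary like the controls.

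Gm23804 lies between Gm22513 and Gm24305 in a stretch of 37.9 kb on chromosome 12 (54696782 to 54734718, GRCm38) and has the sequence of Rnu1a1. It had 92.7 and 48.0 normalized counts in control and 1028 and 105 in Prmt5sKO. Both Prmt5sKO libraries lay above both controls, the shallower by little, and the log2 fold change was 2.4 (SE 1.52, limma-voom adjusted p = 0.518). It rested on the deeper Prmt5sKO library, since it was 0.62 (limma-voom adjusted p = 0.635) without that library and 3.91 (limma-voom adjusted p = 0.0271) without the shallower one. The mixture of assigned reads over these copies therefore differed in the deeper Prmt5sKO library. Gm23804 shares its whole sequence with other annotated genes, and Gm22513 and Gm24305 each differ from that sequence by 1 base. Since reads that fit several copies stayed unassigned, the shares that follow do not measure the RNA made from each copy. Whether read placement or a base difference between the samples contributed was not tested. Gm22513 made up 53.9% (Wilson 95% interval 53.4 to 54.5) and 43.5% (42.3 to 44.6) of the U1 counts in the deeper and shallower control, 6.43% (5.65 to 7.31) in the deeper Prmt5sKO and 49.9% (49.2 to 50.5) in the shallower Prmt5sKO library. Gm24305 made up 38.2%, 47.6%, 2.43% and 42.1% in the same order, and Gm23804 0.262%, 0.510%, 41.7% and 0.457%. In 3 libraries the shares of each copy were near each other, and in the deeper Prmt5sKO library they were not. Without Gm22513 and Gm24305 the other 33 U1 members summed to 2789 and 835 in control and to 2247 and 1828 in Prmt5sKO. Among assigned reads, the low U1 sum of the deeper Prmt5sKO library thus lay in these 2 copies. The intervals cover counting error only.

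**Figure D3:**
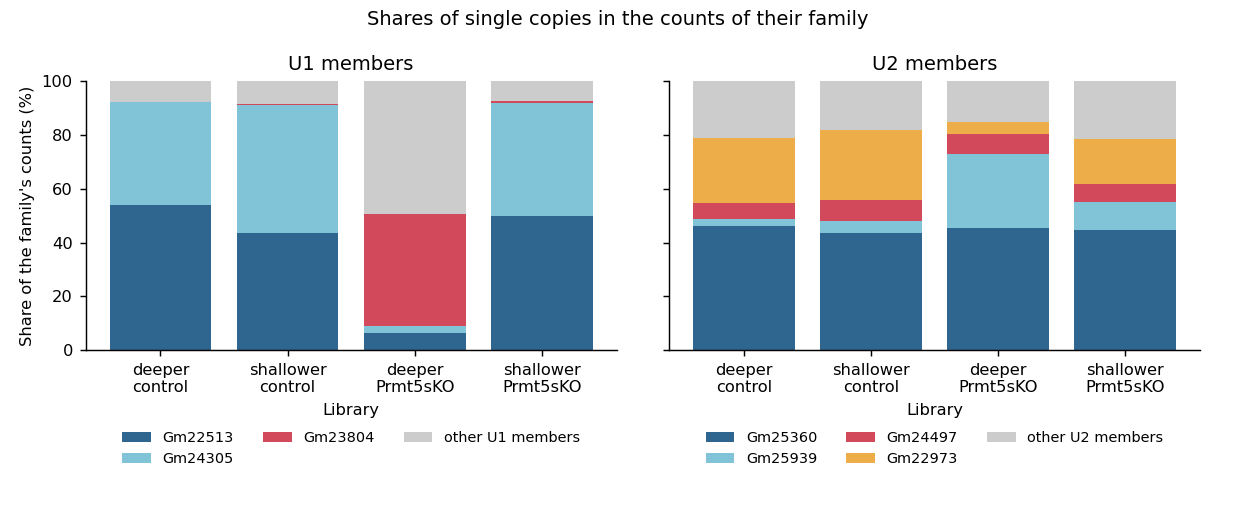
Share (%) of single copies in the counts of all U1 members (left) and all U2 members (right) in each library. The share of Gm23804 is 41.7% in the deeper Prmt5sKO library and at most 0.510% in the others, and that of Gm25939 is 27.6% and 10.4% in the Prmt5sKO and 2.63% and 4.56% in the control libraries.

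Other U1 genes with a name had few reads. Rnu1a1 had 150 and 7.78 normalized counts in control and 76.3 and 106 in Prmt5sKO (log2 fold change 1.22, SE 1.13). Rnu1b6 had 7.91 and 3.89 in control and 4.45 and 17.1 in Prmt5sKO (0.45, SE 1.15). Rnu1b2 had 14.7 and 1.30 in control and 1.48 and 6.03 in Prmt5sKO (-0.80, SE 1.51). The groups overlapped in all 3 genes. Rnu1a1 shares its sequence with 6 other annotated genes, so their single values are uncertain, and the 3 members with that sequence summed to 809 and 115 in control and to 1634 and 667 in Prmt5sKO. Gm24830, which has the sequence of Rnu1b6 and lies in the same cluster on chromosome 3, had 403 and 255 in control and 95.6 and 249 in Prmt5sKO. Its groups did not overlap, but the shallower libraries differed by little, and the log2 fold change was -1.15 (SE 0.51, limma-voom adjusted p = 0.402).

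U2 recognizes the branch site. Its 16 members summed to 55292 and 20955 normalized counts in control and to 54437 and 62590 in Prmt5sKO. The Prmt5sKO libraries lay close to the deeper control, and the shallower control was the low library. The median log2 fold change of the family was 0.72, with 12 members above 0 and 4 below, and both Prmt5sKO libraries lay above both controls in 5 of the 16 and below them in 0, beside the 25.2% and 23.7% of all genes tested. Gm25360, which contributed between 43.6% and 46.2% of the U2 counts in each library, had 25541 and 9144 in control and 24670 and 27893 in Prmt5sKO (log2 fold change 0.79, SE 0.48, limma-voom adjusted p = 0.513).

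Gm25939 had the smallest p-value of all members. Its level was 1453 and 956 normalized counts in control, with a mean of 1205 ± 352 (SD, n = 2), and 15041 and 6505 in Prmt5sKO, with a mean of 10773 ± 6036 (SD, n = 2). Both Prmt5sKO libraries lay well above both controls. The log2 fold change was 3.06 (SE 0.43), with an unadjusted p of 3.95e-04 and a limma-voom adjusted p of 0.198, so that it did not pass the test. Over the alternatives the log2 fold change lay between 2.46 and 3.67 and the adjusted p between 0.00526 and 0.960. It passed without the deeper Prmt5sKO library (limma-voom adjusted p = 0.00526), without the shallower Prmt5sKO library (0.00635) and with the deeper libraries blocked with the shallower ones (0.0216). Its share of the U2 counts was 2.63% (Wilson 95% interval 2.49 to 2.77) and 4.56% (4.25 to 4.89) in control and 27.6% (27.3 to 28.0) and 10.4% (10.2 to 10.6) in Prmt5sKO. Both values for Prmt5sKO were higher than both for control, and they differed between themselves by far more than counting error. Without Gm25939 the U2 sum was 53839 and 19999 in control and 39396 and 56086 in Prmt5sKO. Of the 40-base windows of Gm25939, 32.2% were its own among annotated transcripts. Reads that fit several copies stayed unassigned, so its counts and shares do not measure the RNA made from this copy. Whether read placement or a base difference between the samples contributed was not tested.

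Gm25939 lies on chromosome 1 in a stretch of 29.0 kb (72226240 to 72255198, GRCm38) with Gm25360, Gm23472 and Gm24497. Gm24497 had 3352 and 1617 normalized counts in control and 4126 and 4353 in Prmt5sKO (log2 fold change 0.86, SE 0.36, limma-voom adjusted p = 0.388). Gm23472 had 32.8 and 6.48 in control and 100 and 68.4 in Prmt5sKO (2.41, SE 0.83, limma-voom adjusted p = 0.330). The groups did not overlap in either gene. Of the 40-base windows of Gm24497, 3.95% were its own among annotated transcripts, and Gm23472 had none of its own. The counts of Gm24497 and Gm23472 are therefore uncertain. Gm23472, Gm24497 and Gm25939 lie in introns of the long non-coding RNA gene D230017M19Rik on its strand, and that gene had 30.5 and 29.8 normalized counts in control and 53.3 and 44.3 in Prmt5sKO. The host gene was thus higher in both Prmt5sKO libraries, with a log2 fold change of 0.68 (SE 0.54, limma-voom adjusted p = 0.604).

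The second U2 cluster spans 53.6 kb of chromosome 11 (101604850 to 101658428, GRCm38). Gm26316, its highest gene, differs from Rnu2-10 by C170T and had 10831 and 3328 normalized counts in control and 7207 and 12267 in Prmt5sKO (log2 fold change 0.66, SE 0.58). Gm23849 had 270 and 276 in the control, a mean of 273 ± 4.35 (SD, n = 2), and 606 and 562 in Prmt5sKO, a mean of 584 ± 31.0 (SD, n = 2). Its libraries lay close to each other within each group, with a log2 fold change of 1.10 (SE 0.25), an unadjusted p of 0.00447 and a limma-voom adjusted p of 0.247. Rnu2-10 had 15.8 and 36.3 in control and 54.8 and 29.2 in Prmt5sKO (0.79, SE 0.72), and Gm23971 had 29.4 and 2.59 in control and 30.4 and 50.3 in Prmt5sKO (1.89, SE 1.08). Gm23849, Rnu2-10 and Gm23971 have identical sequences with no 40-base window of their own. Reads with several positions were left unassigned in the authors' counting, so the counts of these 3 genes hold only the reads that were given 1 position, and they do not measure the RNA made from that sequence. These counts summed to 315 and 315 in control and to 691 and 642 in Prmt5sKO. Gm22973, a U2 copy on chromosome 12 with 95.3% of the bases of Rnu2-10, had 13264 and 5421 in control and 2332 and 10397 in Prmt5sKO (-0.77, SE 0.75). It was lowest in the deeper Prmt5sKO library, where its share of U2 was 4.28%, against 24.0% and 25.9% in control and 16.6% in the shallower Prmt5sKO library.

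**Figure D4:**
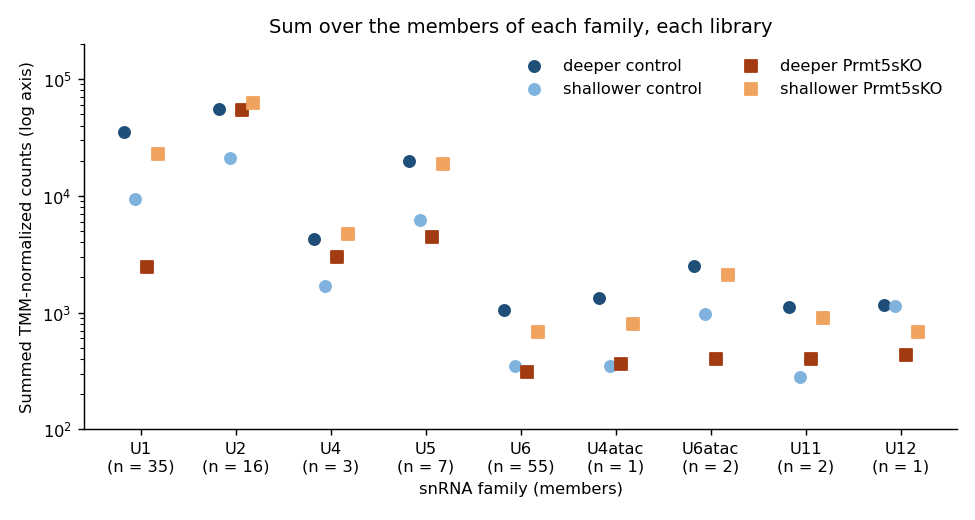
TMM-normalized counts (log axis) summed over the members of each family, in each library. In U12, with 1 member, both Prmt5sKO libraries lie below both control libraries, while the U1 sum ranges from 2466 to 35367 with overlapping groups.

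U5, which holds both exons at the catalytic centre, had 7 members with a sum of 19967 and 6242 normalized counts in control and 4480 and 18597 in Prmt5sKO. The groups overlapped in all 7 members, and each lay below the mean of the controls in the deeper Prmt5sKO library, with a median log2 difference of -1.50, against 0.41 in the shallower one. Gm25099 led with 8165 and 2035 in control and 1926 and 7476 in Prmt5sKO (log2 fold change -0.09, SE 0.83). Rnu5g had 2983 and 1052 in control and 732 and 3265 in Prmt5sKO (-0.20, SE 0.78). Both genes thus showed a level in the deeper Prmt5sKO library near that of the shallower control. Gm23143 had 2966 and 1274 in control and 689 and 2424 in Prmt5sKO (-0.60, SE 0.66), and Gm25313 had 2931 and 637 in control and 482 and 3249 in Prmt5sKO (-0.16, SE 1.03). Gm25099 and Gm23143 lie in a cluster of 21.0 kb on chromosome 4, and Rnu5g and Gm25313 within 5.27 kb on chromosome 9, in introns of Parp16 on its opposite strand.

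U4, which keeps U6 inactive until it is unwound, had 3 members. Their sum was 4280 and 1674 normalized counts in control and 3010 and 4678 in Prmt5sKO. Gm24265 had 3277 and 1229 in control and 2154 and 3514 in Prmt5sKO (log2 fold change 0.45, SE 0.49), with overlapping groups. U6, part of the catalytic centre, had the most members. Its 55 members summed to 1060 and 349 in control and to 310 and 683 in Prmt5sKO, and the highest had a deposited mean of 43.9. The sequence of Rnu6 is shared by 43 annotated genes, of which 11 were members and Rnu6 itself was none. These 11 summed to 181 and 20.7 in control and to 43.7 and 111 in Prmt5sKO. Reads that fit several of these copies stayed unassigned, so the values hold only the U6 reads that were given 1 position and are no measure of the U6 level.

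The minor spliceosome was represented by U11, U12, U4atac and U6atac. Rnu12, the branch site RNA of the minor spliceosome, had 1171 and 1148 normalized counts in control, a mean of 1159 ± 16.3 (SD, n = 2), and 436 and 683 in Prmt5sKO, a mean of 559 ± 175 (SD, n = 2). Both Prmt5sKO libraries lay below both controls, which lay close to each other. The log2 fold change was -1.11 (SE 0.27), with an unadjusted p of 0.00653 and a limma-voom adjusted p of 0.261. Its log2 fold change lay between -1.41 and -0.76 when each library was left out in turn. Of the 40-base windows of Rnu12, 20.5% were its own among annotated transcripts. Reads with several positions stayed unassigned, so its counts hold only the reads that could be assigned and are no full measure of U12 RNA.

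Rnu11, the 5′ splice site RNA of the minor spliceosome, had 1119 and 268 in control and 397 and 890 in Prmt5sKO (log2 fold change 0.05, SE 0.70). The U4atac gene Gm22710 had 1336 and 348 in control and 362 and 804 in Prmt5sKO (-0.40, SE 0.68). The U6atac gene Gm25541 had 2503 and 960 in control and 396 and 2089 in Prmt5sKO (-0.81, SE 0.81). In all 3 the groups overlapped, and the deeper control and the shallower Prmt5sKO library were the higher library of their group. Rnu11 and Gm22710 overlap exons of other genes and hold no 40-base window of their own among annotated transcripts, so their counts are uncertain.

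U7 was not among the members. Of 61 annotated U7-type genes, 1 was in the deposited table, with a mean of 2.34 normalized counts, and Rnu7 itself was not analysed here. U7 is therefore not described further.

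Of the other members, those with at least a 2-fold difference and no overlap of the groups were of low level. Gm24191, a diverged U6atac copy in an intron of Zfp644, had 15.8 and 19.5 normalized counts in control and 2.96 and 0 in Prmt5sKO (log2 fold change -3.68, SE 1.35, unadjusted p = 0.0344). Gm22079, a diverged U6 copy in an intron of Wars, had 10.2 and 14.3 in control and 0 in each Prmt5sKO library, which is at least 9.44-fold lower when the floor is set at 3 counts over the group. Its fitted value was -4.86 (SE 1.32, unadjusted p = 0.00995). Gm24036, a diverged U1 copy, had 2.26 and 19.5 in control and 0 in each Prmt5sKO library. Over pooled counts this is at least 8.02-fold lower, but 15 of the 17 control counts came from the shallower control library. The deeper control, with 2 counts, lay below the floor of 3 and gives no such bound. Gm24399 had 1.13 and 19.5 in control and 0 and 1.01 in Prmt5sKO. Pooled, with 16 counts over the control and 1 over the Prmt5sKO libraries, control was 22.6 times Prmt5sKO (exact 95% interval 3.52 to 950). That interval covers counting error only, and 15 of the 16 control counts came from the shallower control library. Each of these 4 was a copy with every 40-base window its own among annotated transcripts, and none had an adjusted p under 0.05.

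Besides these 4, the groups were separated downwards by at least 2-fold in 9 copies. They are the U1 copies Gm25153 (log2 fold change -1.92) and Gm24056 (-1.23), and the U6 copies Gm22107 (-1.24), Gm23196 (-1.07), Gm24693 (-2.09), Gm22208 (-2.10), Gm25482 (-1.01), Gm22753 (-2.01) and Gm26138 (-2.96). The control levels of these ranged from 4.52 to 38.9 and the Prmt5sKO levels from 0 to 14.1 normalized counts. Upwards, 6 U6 copies were separated by at least 2-fold. Gm25897, in an intron of Lima1, had 4.52 and 6.48 in control and 25.2 and 23.1 in Prmt5sKO (2.05, SE 0.87, unadjusted p = 0.0557). The others with higher values were Gm26049 (1.04), Gm24019 (2.52), Gm24722 (1.61), Gm22297 (1.52) and Gm22822 (1.94), with control levels of 0 to 6.48 and Prmt5sKO levels of 4.45 to 17.1. Gm24693, Gm24722 and Gm22822 have the sequence of Rnu6, so their single values are uncertain. The share of all genes tested that were separated by at least 2-fold is not given, so the numbers of such copies have no background. Such copies passed the threshold on the mean through the higher group, wholly or in part. Gm22079 and Gm24036, at 0 in each Prmt5sKO library, passed it through the control libraries alone. Gm24399, with a Prmt5sKO mean of 0.503, and Gm24191, with 1.48, passed it almost wholly through control. The p-values and fold differences of these copies are therefore descriptive and no support for a difference. Gm22079 and Gm24191 are among the members counted above as lower at an unadjusted p under 0.05. The deposited mean was under 5 in control for 9 members and under 5 in Prmt5sKO for 26.

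Members fell into 68 full copies, with at least 95% of the bases of their family's reference gene, and 54 diverged copies, with fewer. This division rests on likeness to a reference gene only and does not say which copies are pseudogenes. The median deposited mean was 17.8 in the full and 9.28 in the diverged copies, and 23 full against 5 diverged copies had a mean of at least 100. The median log2 fold change was -0.11 in the full and -0.62 in the diverged copies. The highest diverged copy was Gm25099, a U5 gene with 94.0% of the bases of Rnu5g. Full copies were not all high, since 30 of them were U6 copies.

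**Figure D5:**
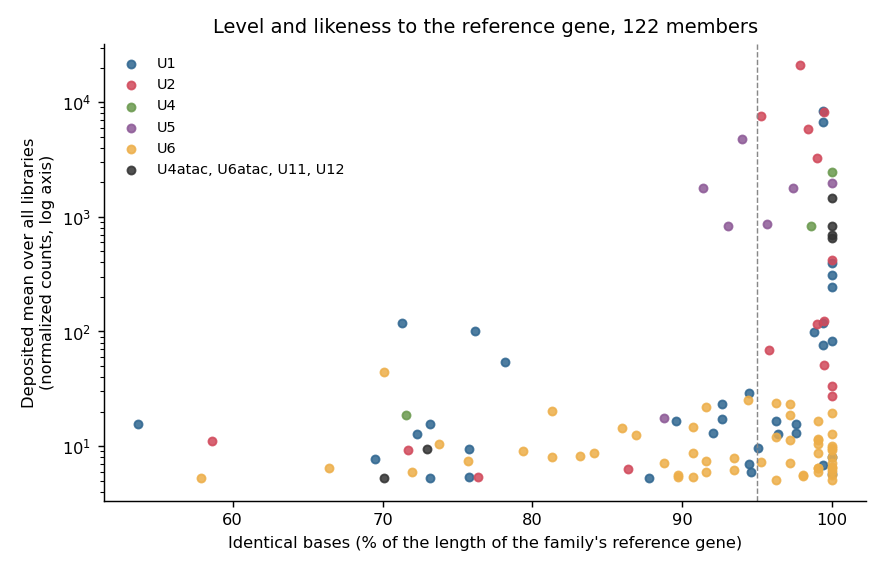
Deposited mean over all libraries (normalized counts, log axis) of each of the 122 members against the bases it shares with its family's reference gene, in percent of the reference length. The dashed line marks the 95% that separates full from diverged copies. The 55 U6 members reach no higher than 43.9 at any likeness.

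Short motifs of the families were searched as letters on the sense strand, and they do not overlap each other. ACTTACCTG, with which U1 pairs with the 5′ splice site, was in 21 of the 35 U1 members, against 26.4% of the 208 annotated U1-type genes and 3.98% of all 1383 snRNA genes with a sequence. GTAGTA, the U2 stretch for the branch site, was in 13 of 16 U2 members, against 59.3% of the 54 annotated U2-type genes and 3.69% of all. ACAGAGA, the U6 stretch for the 5′ splice site, was in 45 of 55 U6 members, against 60.4% of 954 annotated U6-type genes and 42.2% of all. The Sm site ATTTTTG was in 18 of the 30 members of the U2, U4, U5, U4atac, U11 and U12 families, against 26.0% of their 123 annotated genes and 3.33% of all. These were 14 U2, 2 U4, 1 U4atac and 1 U12 members. The form with 1 more T, ATTTTTTG, was searched after the sequences were seen, and 7 members held it, 6 of U5 and 1 of U11, against 12.2% of the annotated genes and 1.37% of all. Rnu5g and Rnu11 are among these 7. Each motif was more frequent among members than among the annotated genes of its family, which include the members. The median deposited mean of U2 members was 124 with and 6.37 without GTAGTA. In the 30 members searched for the Sm site it was 555 with and 739 without ATTTTTG, and 828 in the 25 with either form and 9.21 without. In U6 members it was 8.05 with and 8.06 without ACAGAGA.

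By position, 52 members lay outside any other annotated gene, 41 in an intron on the strand of the host, 22 in an intron on the other strand, 3 over an exon on the same and 4 over an exon on the other strand. The median deposited mean was 16.6 outside genes, 12.8 in introns of the same strand and 8.13 in introns of the other strand. Reads of an unspliced host transcript cannot be told apart from those of an snRNA copy on the same strand. Since it is not given whether counting used strand, this may hold for copies on the other strand too. Of the members, 27 had every 40-base window to themselves among annotated transcripts and 33 had none, and the counts of the latter are uncertain.

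The genes that make snRNAs and their particles were examined as 8 lists with 75 genes, of which 74 were tested. None had an adjusted p under 0.05 (0 called). At an unadjusted p under 0.05, 0 were higher and 11 (14.9%) were lower in Prmt5sKO, beside 6.03% and 6.97% of all genes tested, and the 11 include Prmt5, the deleted gene. Both Prmt5sKO libraries lay below both controls in 37 (50%) and above them in 7 (9.46%), beside the 23.7% and 25.2% over all genes given above, and the median log2 fold change was -0.24.

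In the core assembly list 3 of 17 genes tested had an unadjusted p under 0.05, all lower. They were Prmt5, which the deletion targets (log2 fold change -3.52, SE 0.27), Gemin5, which binds snRNAs in the SMN complex (-0.73, SE 0.24), and Gemin6, another SMN complex subunit (-0.94, SE 0.27). Smn1 had 573 and 602 normalized counts in control and 598 and 414 in Prmt5sKO, with overlapping groups. In the Integrator list, which forms snRNA 3′ ends, 2 of 14 were lower at that p, Ints7 (-0.74, SE 0.20) and Ints5 (-0.49, SE 0.20). Of the particle proteins 3 of 12 were lower, the U2 protein Snrpa1 (-0.81, SE 0.21) and the U4/U6 proteins Prpf4 (-0.61, SE 0.22) and Prpf31 (-0.56, SE 0.21). In the list of the U7 particle and histone mRNA processing 2 of 6 were lower, the histone stem-loop binding gene Slbp (-0.66, SE 0.22) and Casp8ap2 (-0.83, SE 0.22), and in the 7SK particle 1 of 3, the capping enzyme gene Mepce (-0.97, SE 0.29). None of the 5 SNAPc genes, whose products start snRNA transcription, of the 9 genes of cap binding, export, trimming and import, or of the 8 minor spliceosome protein genes had an unadjusted p under 0.05. The minor spliceosome proteins summed to 2801 and 2747 in control and to 2835 and 2587 in Prmt5sKO.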

How the data were processed

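RNA of cultured MuSC, 2 control and 2 Prmt5sKO samples, was depleted of ribosomal RNA and sequenced on the Ion Torrent Proton platform, with 2 libraries per run. Which libraries shared a run is not given in the sources used here. Per the study's methods and the submitters' processing notes, reads were trimmed (Reaper), mapped to GRCm38 with STAR 2.4.0a and tested with DESeq2 by the authors. According to the overview of their counting, reads with several positions or over several genes stayed unassigned, which bears on near-identical snRNA copies. Whether counting used strand is not given. The signal columns deposited are averages of counts divided by size factors, for each group and for all libraries. The remaining deposited columns hold the authors' comparison (log2 fold change, its standard error, p-value and adjusted p-value) and were not used.

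Each group average combines 2 libraries, and every read adds a fixed step that depends on its library. These steps gave back whole counts per library in 100% of genes, with largest relative residuals of 5.3e-15 and 5.2e-15, and on simulated means for 20065 of 20065 genes. The deposited columns are group means, and edgeR was not run on the recovered counts. The fit by limma-voom (R 4.3.3, limma 3.58.1) covered 16151 genes whose normalized counts averaged 5 or more. TMM factors were computed by own code, trimming 30% and 5%. A gene was called at an adjusted p up to 0.05 and a 2-fold or larger change. The rule for members and this filter use the same threshold, so all 122 members were tested. Single-library differences used log2 of normalized counts + 0.5. Shares have Wilson 95% intervals, the ratio for Gm24399 has an exact 95% interval on pooled counts, and a group at 0 was set to 3 counts. Each of these covers counting error only.

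Identifiers were matched to GENCODE vM21 (19782 of 20065). Families were assigned with blastn 2.17.0 to genes with a named U number, and to leading members where there was none. The genes named are those with an Rnu symbol, the 12 other highest members, other members with at least a 2-fold difference and groups that did not overlap, and those nearest the threshold. Gm22710, D230017M19Rik and Smn1 were added for description after their values were seen. The members, lists and tests were chosen with earlier results of these data known. Alternatives covered the scaling, the filter, the test, each library, both pairings of libraries and removal of ribosomal and sex-linked genes. RefSeq promoters matched 0 members.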

Additional observations from a re-analysis of the deposited data

How the results depend on the processing

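The columns carry no replicate numbers, so no pairing by number was possible, and both pairings of the libraries were run as a replicate block, without a check of which is right. With the deeper libraries paired, 0 genes were called and the members' median log2 fold change was -0.50. With deeper paired with shallower libraries, 333 genes were called and the median was -0.45. This pairing also puts the libraries with high Xist together and those with low Xist together. Leaving out each library in turn gave 0 to 496 called genes, with 496 without the deeper and 99 without the shallower Prmt5sKO library, where the remaining library of the group is assumed to vary like the controls. The median then ranged from -1.19 to 0.61. The members whose Prmt5sKO values all lay above control ranged from 17 to 64, with 64 without the deeper control. Those all below ranged from 22 to 83, with 83 without the shallower control. In these fits fewer libraries have to agree. By library size alone 11 members were lower in both. With a minimum mean of 10, which left 70 members, 7 were higher and 7 lower. The share of all genes tested that were separated in these alternatives is not given, so these counts have no background. Library size alone also moved the median of all genes to 0.13 and that of the members to -0.14. The other scalings, limma-trend, no filter, and removal of ribosomal genes, Lars2 and sex chromosomes called 0 genes, with between 2025 and 2371 genes at an unadjusted p under 0.05, and kept the members' median between -0.32 and -0.19. In members outside other genes it was -0.48, and in members with at least 50% of their windows their own, an alternative chosen after seeing the data, -0.53. Of the 43 named members, 14 changed sign when a library was left out: Rnu5g (-1.28 to 0.88), Rnu1b2 (-2.21 to 0.75), Gm25099 (-1.08 to 0.92), Gm23143 (-1.50 to 0.31), Gm25313 (-1.52 to 1.24), Rnu11 (-0.94 to 1.12), Rnu1a1 (-0.76 to 3.40), Gm26316 (-0.19 to 1.51), Gm24265 (-0.25 to 1.17), Gm22513 (-5.79 to 0.37), Gm22973 (-1.86 to 0.30), Gm24305 (-7.01 to 0.31), Gm25541 (-1.97 to 0.42), Rnu1b6 (-0.39 to 1.48). Gm25099 was at 0.01 by library size alone, and Rnu11 at -0.05 with the deeper libraries paired. The cause was not tested. The alternative restricted to members whose every 40-base window occurs once in the genome was not run. Depth limits the copies with a mean under 25, 83 of the members.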
